A study of Mus musculus with 7 samples.

Results

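ETS transcription factors of blood cells were followed in B-cell precursor (BCP) cells before and after overt leukemia in Eμ-Ret mice. The 7 genes were Spi1, Spib, Ets1, Etv6, Erg, Fli1 and Elf1, chosen as family members with a known part in B-cell precursors or in B-cell acute lymphoblastic leukemia (B-ALL) and found by name among the 24341 genes of the deposited table. All 7 passed the filter on low values (an FPKM sum of at least 10 over the samples) that left 10541 genes for testing. FPKM counts sequenced fragments corrected for transcript length and library size, so levels of different genes can be set side by side.

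All mice carried the Eμ-Ret transgene as hemizygotes, with BALB/c as the strain background. This transgene is an oncogenic Ret fusion driven by the enhancer of the immunoglobulin heavy chain, which acts in B-lineage cells, so no group lacked the oncogene. Preleukemic samples came from 4 young, healthy animals, and leukemic samples from 3 older, moribund animals with overt disease. BP-1 positive BCP cells were sorted from spleen, RNA was extracted, and stranded mRNA libraries were made. Age and disease differed together between the groups and cannot be told apart, and the sex of each mouse was not used here. The samples were bulk RNA, in which fewer cells of a type and less RNA per cell cannot be told apart.

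ETS factors share a DNA-binding domain, the ETS domain, that recognizes a GGAA core. Family members differ in the bases they prefer around this core and in their partner proteins, and several bind overlapping sets of sites. In blood, Spi1 encodes PU.1, which is required for both myeloid and lymphoid development, Spib encodes its B-lineage relative Spi-B, and Erg and Fli1 are closely related factors of stem cells and megakaryocytes. Ets1 and Elf1 are abundant in lymphocytes, and Etv6 is a repressor whose human counterpart is often fused to RUNX1 in childhood B-ALL.

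The promoters of 3 of these genes are printed because the ETS family often regulates its own members, and because the genes differed in how they behaved between the groups: Erg fell, Spib was lower without passing the test, and Etv6 had near-equal means. RefSeq sequences of GRCm38.p6 run from 250 bases before the start site to 50 bases after it, and 4 of the 7 genes (Erg, Elf1, Etv6 and Spib) were matched. The start sites shown are those that coincide with an edge of the deposited locus. Capitals mark GGAA, or TTCC where the core lies on the other strand.
Erg, chr16:95586544-95586843, minus strand: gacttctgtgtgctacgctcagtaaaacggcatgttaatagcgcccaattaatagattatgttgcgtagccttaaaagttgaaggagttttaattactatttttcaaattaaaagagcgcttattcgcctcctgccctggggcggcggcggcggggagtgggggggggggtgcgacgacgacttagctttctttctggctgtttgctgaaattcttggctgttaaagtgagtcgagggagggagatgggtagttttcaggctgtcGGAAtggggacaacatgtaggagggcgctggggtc
Spib, chr7:44532022-44532321, minus strand: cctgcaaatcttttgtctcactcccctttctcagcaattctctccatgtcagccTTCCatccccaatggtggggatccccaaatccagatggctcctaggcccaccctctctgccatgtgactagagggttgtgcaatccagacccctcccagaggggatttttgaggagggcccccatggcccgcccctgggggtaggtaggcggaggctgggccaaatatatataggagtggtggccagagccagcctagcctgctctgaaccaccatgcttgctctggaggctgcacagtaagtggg
Etv6, chr6:134035450-134035749, plus strand: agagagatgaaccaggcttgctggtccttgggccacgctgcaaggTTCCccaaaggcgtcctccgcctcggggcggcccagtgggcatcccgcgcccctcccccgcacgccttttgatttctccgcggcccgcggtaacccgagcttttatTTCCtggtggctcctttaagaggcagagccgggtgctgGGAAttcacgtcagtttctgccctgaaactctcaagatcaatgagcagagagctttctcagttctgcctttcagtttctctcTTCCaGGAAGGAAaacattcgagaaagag

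The GGAA core, searched on both strands, was found once in the printed Erg promoter and once in the Spib promoter. The Etv6 promoter held it 6 times. At the other Erg start sites it was found 2 and 4 times, and at those of Elf1, not printed, 2 and 1 times. Over 32851 promoters of the same length the median was 3, and 96% held at least 1. The longer forms CCGGAA and GAGGAA, each of which contains GGAA, were in 14.9% and 28.3% of promoters and in none of the 3 printed. In the printed windows CpG sites numbered 16 for Erg, 2 for Spib and 17 for Etv6, against a median of 7. Whether any of these counts go with expression was not tested. A match to these letters is a description of the window and no measure of binding.

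Depth was read from the steps between low FPKM values and lay between 13.6 and 15.95 M fragments per sample. The lowest value of the 7 genes in any sample was 12.4 FPKM, that of Etv6 in leukemic replicate 2, which was at 15.35 M fragments. At the depth of the shallowest sample, 13.6 M, it would stand for 252 fragments, a counting error of 6.3%. This assumes an effective transcript length of 1500 bases. FPKM totals were 507355 to 539887 in leukemic samples and 448022 to 471447 in preleukemic samples. Markers of other cell types moved with the groups: those of red cell precursors summed to 812 to 3259 FPKM in leukemic samples and 24.3 to 396 in preleukemic samples, and those of neutrophils to 1392 to 1720 and 146 to 846. B-cell precursor markers summed to 3336 to 5411 FPKM in leukemic samples and 6522 to 8108 in preleukemic samples, with 2 of 12 lower in the test, so the labelled cell type was present in all 7 samples. Their part in the results was not tested.

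**Figure D1:**
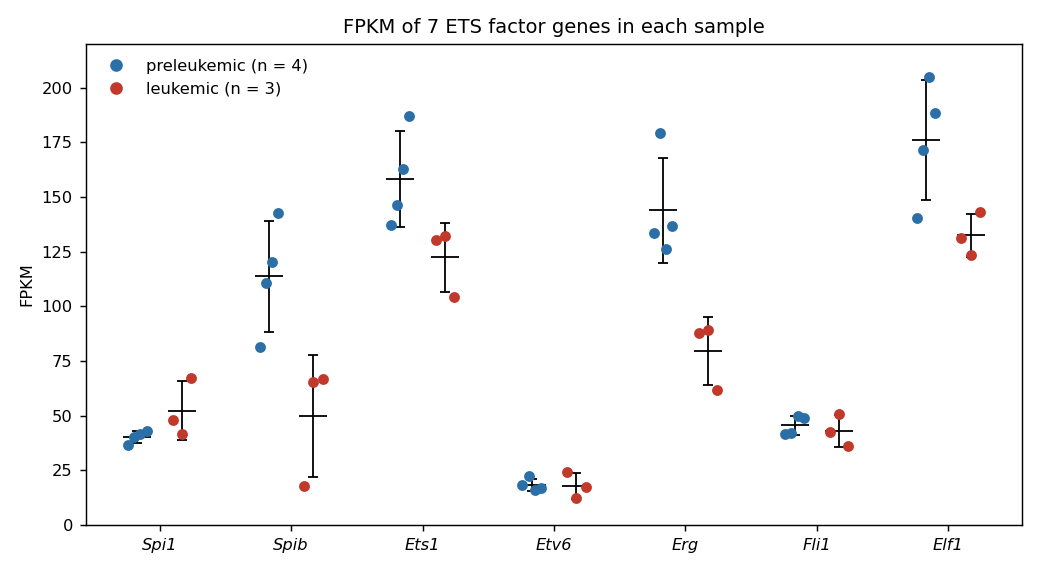
FPKM (vertical axis) of the 7 ETS genes (horizontal axis) in 4 preleukemic (blue) and 3 leukemic (red) samples, with a point per sample and a line and bars for the mean and SD. Erg, Spib and Ets1 had every leukemic point below every preleukemic point, and the Etv6 and Fli1 points of the groups lay in the same range.

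Of the 7 genes, 1 passed the test, Erg, which was lower in leukemic samples (limma on log2(FPKM + 1), adjusted over all 10541 genes). The share was 14.3%, close to the 14.7% of all genes tested that were called in either direction of which 8.47% were higher and 6.26% lower. Log2 fold changes were below 0 for 6 of the 7, with a median of -0.37 against -0.02 for all genes tested. The groups did not overlap for 3 of the 7 (Spib, Ets1 and Erg), all lower in leukemic samples, where 32% of all genes tested did not overlap in either direction and 17.1% were lower.

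Erg is needed to maintain blood stem cells, and human B-ALL has a subtype with deletions of ERG. Its gene lies at chr16:95359169-95586593 on GRCm38. It was measured at 87.9, 89.0 and 61.7 FPKM in leukemic replicates 1 to 3, and at 133, 179, 126 and 137 FPKM in preleukemic replicates 1 to 4. Every leukemic sample was below every preleukemic sample, and the widest gap within a group lay between preleukemic replicate 2 and the others. The means were 79.5 ± 15.5 FPKM (SD, n = 3) and 144 ± 24.0 FPKM (SD, n = 4). Erg fell 1.81-fold on the log2(FPKM + 1) scale, a log2 change of -0.85 (SE 0.17, 95% interval -1.25 to -0.45), with a limma adjusted p of 0.0225. The call was lost when preleukemic replicate 2, 3 or 4 was left out (limma adjusted p of 0.0523, 0.0553 and 0.071), while the change lay between -0.94 and -0.68 whichever sample was left out.

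Marker levels of several cell types are set beside Erg. B-cell precursor markers, with sums of 3336 to 5411 FPKM in leukemic samples and 6522 to 8108 FPKM in preleukemic samples, were lower together with Erg. Of these 12 markers, 2 were lower in the test. Cd79a, Igll1 and Vpreb1 weighed heavily in the sum, with means of 1051, 637 and 558 FPKM in leukemic samples. Their preleukemic means were 1467, 1493 and 1448 FPKM. The 6 megakaryocyte and platelet markers summed to 13.0 to 52.2 FPKM in leukemic samples and 0.348 to 2.92 FPKM in preleukemic samples, with 4 of the 4 tested higher. The 8 endothelial markers summed to at most 4.82 FPKM in any sample, 6 of them were below 1 FPKM in all 7 samples, and 0 passed the filter. Stem cell markers were not listed, and the part of cell composition in the Erg result was not tested.

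Fli1 is the closest relative of Erg and works with it in stem cells and megakaryocytes. The gene lies at chr9:32422204-32541452. Its leukemic values were 42.7, 50.6 and 36.0 FPKM, and its preleukemic values were 41.5, 42.0, 49.8 and 49.0 FPKM. The groups overlapped, with both the lowest and the highest sample leukemic. The log2 difference was -0.09 (SE 0.13, 95% interval -0.40 to 0.22, limma adjusted p = 0.664). Within a sample, Erg was 2.06, 1.76 and 1.72 times Fli1 in leukemic replicates 1 to 3, against 3.21, 4.27, 2.53 and 2.80 times in preleukemic replicates 1 to 4. This ratio did not overlap between the groups, and its means were 1.85 ± 0.187 (SD, n = 3) and 3.20 ± 0.766 (SD, n = 4).

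Ets1, a factor that holds back plasma cell formation and is active in B, T and NK cells, lies beside Fli1 at chr9:32696042-32757820, with 154589 bases between the deposited loci. It was measured at 131, 132 and 104 FPKM in leukemic replicates 1 to 3, and at 137, 146, 163 and 187 FPKM in preleukemic replicates 1 to 4. All leukemic samples were lower, but leukemic replicate 2 and preleukemic replicate 1 were close together. The means were 122 ± 15.7 FPKM (SD, n = 3) and 158 ± 21.9 FPKM (SD, n = 4). The log2 difference of -0.37 (SE 0.13, 95% interval -0.68 to -0.05) did not pass the test (limma adjusted p = 0.105). Ets1 was 2.62 to 3.06 times Fli1 in leukemic samples and 3.27 to 3.82 times Fli1 in preleukemic samples, so the ratio of these neighboring genes also did not overlap.

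The other genes of chromosome 9 stood higher in leukemic samples. Over 493 of them with a mean of at least 5 FPKM the median log2 fold change was 0.23, and 77.5% were above 0, against a median of -0.02 over 8775 genes of all chromosomes. Set against this median, Ets1 stood at -0.60 and Fli1 at -0.32. Leukemic replicate 3, the lowest sample for both genes, also had the lowest chromosome 9 median of the leukemic samples, 0.10 against 0.33 and 0.28, and the part of chromosome copy number in these values was not tested. The chromosomes of Spi1, Spib, Etv6, Elf1 and Erg had medians between -0.09 and -0.03, which leaves Erg at -0.76 and Spib at -1.29 relative to their own chromosomes.

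Spib, which is expressed in B cells and plasmacytoid dendritic cells and shares many sites with PU.1, had the largest log2 difference and the widest log2 spread of the 7 genes with all samples in the fit. The gene lies at chr7:44525995-44532071. It was measured at 17.7, 65.4 and 66.8 FPKM in leukemic replicates 1 to 3, and at 81.6, 111, 120.3 and 143 FPKM in preleukemic replicates 1 to 4. Every leukemic sample was below every preleukemic sample, and leukemic replicate 1 stood far below the other two. The means were 49.96 ± 28.0 FPKM (SD, n = 3) and 114 ± 25.4 FPKM (SD, n = 4). The log2 difference of -1.36 (SE 0.46, 95% interval -2.43 to -0.29) did not pass the test (limma adjusted p = 0.0857). Without leukemic replicate 1 the difference was -0.75, smaller than the -0.93 of Erg.

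Leukemic replicate 1 also had the lowest transcript level of the sorted surface protein BP-1 and the lowest sum of B-cell precursor markers. Enpep, which encodes BP-1, was at 19.1 FPKM in leukemic replicate 1 against 102 and 77.2 FPKM in the other leukemic samples and 134 to 210 FPKM in preleukemic samples. The sum of B-cell precursor markers was 3336 FPKM in leukemic replicate 1, and 5411 and 4167 FPKM in replicates 2 and 3. Within that sum, Igll1 and Vpreb1 were lowest in leukemic replicate 3, at 373 and 364 FPKM against 605 and 399 FPKM in replicate 1. Plasmacytoid dendritic cell markers summed to 87.2 to 120.0 FPKM in leukemic samples and 90.4 to 127 FPKM in preleukemic samples, with leukemic replicate 1 the highest of the leukemic samples. Of these 7 markers, 3 were below 1 FPKM in all 7 samples. Only 3 were tested, of which 1 was lower in leukemic samples, so the sum rests on few genes. Mature B cell markers summed to 174, 386 and 501 FPKM in leukemic replicates 1 to 3. In preleukemic samples their sum was 133 to 230 FPKM, and 2 of the 6 tested were higher in leukemic samples. The part of these levels in the Spib result was not tested.

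Spi1, located at chr2:91096797-91115756, was the one gene of the 7 with a difference above 0. Its values were 47.8, 41.8 and 67.3 FPKM in leukemic replicates 1 to 3, and 36.7, 40.0, 41.6 and 43.0 FPKM in preleukemic replicates 1 to 4. The groups overlapped at leukemic replicate 2, and leukemic replicate 3 stood above all other samples. The means were 52.3 ± 13.3 FPKM (SD, n = 3) and 40.3 ± 2.73 FPKM (SD, n = 4). The log2 difference was 0.34 (SE 0.16, 95% interval -0.03 to 0.71, limma adjusted p = 0.174), and it was 0.15 without leukemic replicate 3. Macrophages, which also depend on PU.1, had a marker sum of 49.9, 235 and 95.7 FPKM in leukemic replicates 1 to 3 and 13.5 to 24.3 FPKM in preleukemic samples, with 6 of 9 markers tested higher. Neutrophil markers, of another PU.1-dependent lineage, summed to 1511, 1392 and 1720 FPKM in leukemic replicates 1 to 3. The macrophage sum was highest in leukemic replicate 2, where Spi1 was the lowest of the leukemic samples. The neutrophil sum ordered the leukemic samples as Spi1 did, an order of only 3 samples that Elf1 had as well. The part of either cell type in the Spi1 values was not tested.

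The ratio of the PU.1 to the Spi-B transcript is a description without a test, as are the ratios to Fli1. Neither Spi1 nor Spib passed the test alone. Spi1 was 2.70, 0.639 and 1.01 times Spib in leukemic replicates 1 to 3, and 0.449, 0.362, 0.346 and 0.301 times Spib in preleukemic replicates 1 to 4. Spib was the more abundant transcript in every preleukemic sample and in leukemic replicate 2, the 2 transcripts were at near-equal FPKM in leukemic replicate 3, and Spi1 was the more abundant in leukemic replicate 1. The ratio did not overlap between the groups, with means of 1.45 ± 1.1 (SD, n = 3) and 0.365 ± 0.0621 (SD, n = 4). Leukemic replicate 1 stood far above the other leukemic samples. How often ratios of other gene pairs do not overlap was not computed, and the part of cell composition in this ratio was not tested.

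**Figure D2:**
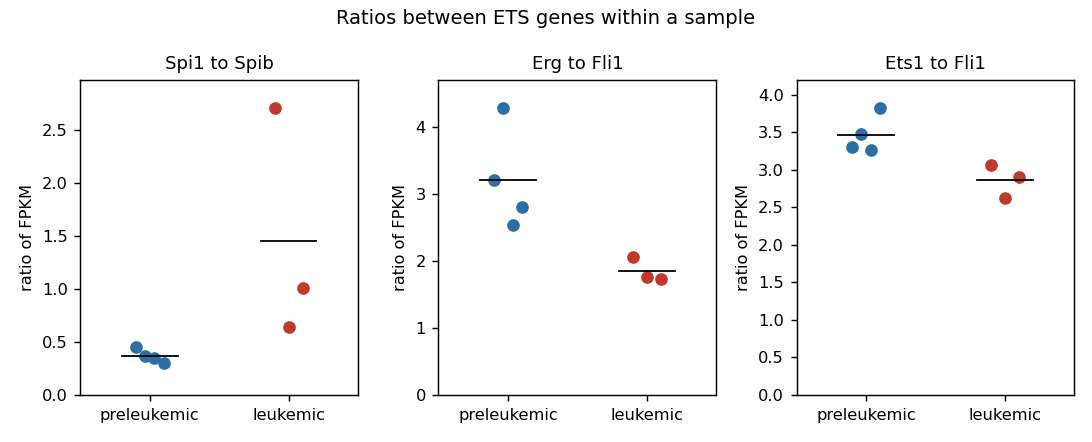
Ratio of FPKM within each sample (vertical axes, each starting at 0) for Spi1 to Spib, Erg to Fli1 and Ets1 to Fli1, with a point per sample and a line at the group mean. Leukemic points (red) were above all preleukemic points (blue) for Spi1 to Spib, with replicate 1 highest at 2.70, and below them for both ratios to Fli1.

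Elf1, a factor that activates many lymphoid and ubiquitous genes, had the highest mean FPKM of the 7 genes in both groups. The gene lies at chr14:79459937-79582491. It was measured at 131, 123 and 143 FPKM in leukemic replicates 1 to 3, and at 140.4, 171, 205 and 188 FPKM in preleukemic replicates 1 to 4. The groups overlapped at 1 pair, leukemic replicate 3 and preleukemic replicate 1. The means were 133 ± 9.85 FPKM (SD, n = 3) and 176 ± 27.5 FPKM (SD, n = 4), and the log2 difference of -0.40 (SE 0.13, 95% interval -0.71 to -0.08) did not pass the test (limma adjusted p = 0.087). Without preleukemic replicate 1 it passed (limma adjusted p = 0.0373). Leukemic replicate 3, the highest leukemic sample, was also the one leukemic sample in which the genes of chromosome 14 had a median deviation above 0, 0.15 against -0.09 in each of the others, and the part of copy number was not tested.

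Etv6, located at chr6:134035700-134270147, had the lowest mean FPKM of the 7 genes in both groups, although Spib was lower in leukemic replicate 1. Its values were 24.2, 12.4 and 17.5 FPKM in leukemic replicates 1 to 3, and 18.2, 22.3, 16.04 and 17.1 FPKM in preleukemic replicates 1 to 4. The leukemic samples held both the highest and the lowest value. The means were 18.0 ± 5.94 FPKM (SD, n = 3) and 18.4 ± 2.77 FPKM (SD, n = 4), with a log2 difference of -0.07 whose 95% interval, -0.57 to 0.44, covers both a fall and a rise (limma adjusted p = 0.847). The difference was 0.16 without leukemic replicate 2.

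In preleukemic samples the mean levels ran from Elf1 through Ets1, Erg and Spib, neighbors whose sample ranges overlapped, and then dropped to Fli1 and Spi1, which overlapped each other, and to Etv6. In leukemic samples Elf1 and Ets1 overlapped at the top, Erg, Spi1, Spib and Fli1 formed a middle group of overlapping neighbors from 79.5 down to 43.1 FPKM, and Etv6 had the lowest mean, with a range apart from that of its neighbor Fli1 but overlapping that of Spib, which was below Etv6 in leukemic replicate 1. Compared with all genes tested, the level of Elf1 was at percentile 95.9, Ets1 at 95.3, Erg at 93.7, Spib at 90.6, Spi1 at 80.0, Fli1 at 79.6 and Etv6 at 52.1. The SD of log2 values between leukemic samples was 1.06 for Spib, 0.46 for Etv6, 0.35 for Spi1 and 0.11 for Elf1, where the median over all genes tested was 0.21. Between preleukemic samples the SD was 0.33 for Spib and 0.10 to 0.23 for the other 6, with a median of 0.13 over all genes tested.

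The share of each gene in the ETS transcripts was computed over the 26 family genes of the table, the 7 and 19 others. The 7 genes made up 64.1% to 70.2% of this FPKM sum in leukemic samples and 69.7% to 74.0% in preleukemic samples. Spi1 held 5.70% to 8.82% in leukemic and 4.07% to 4.34% in preleukemic samples, Spib 2.35% to 8.91% and 9.66% to 13.8%, and Erg 8.08% to 12.1% and 12.8% to 18.2%. The shares of Ets1, Etv6, Fli1 and Elf1 overlapped between the groups. The family sum by which each value was divided was 734 to 764 FPKM in leukemic samples and 844 to 1033 FPKM in preleukemic samples, lower in every leukemic sample. Spi1, whose share was higher in every leukemic sample, overlapped in FPKM before this division.

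**Figure D3:**
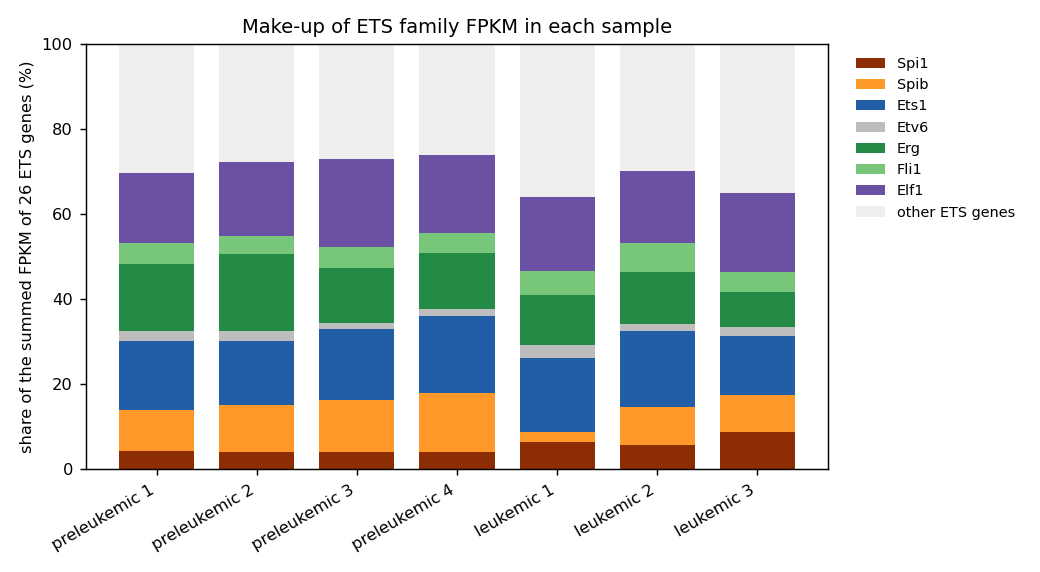
Share (percent, vertical axis) of each ETS gene in the summed FPKM of 26 ETS family genes, a stacked bar per sample. Spib (orange) took 2.35% in leukemic replicate 1 and 9.66% to 13.8% in the preleukemic samples, and Spi1 (brown) took more in each leukemic than in any preleukemic sample.

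Of 20 further ETS genes, 19 were in the table and 12 passed the filter, and the 7 others in the table were at 1.42 FPKM or less in every sample. Of the 12, 1 was called, against the 14.7% of all genes tested, and the median log2 fold change was -0.06. The called gene was Elk4, a ternary complex factor that binds with serum response factor, at 25.9, 28.8 and 26.1 FPKM in leukemic replicates 1 to 3 and 41.7 to 53.3 FPKM in preleukemic samples. Elk4 fell by 0.73 on the log2 scale (SE 0.11, limma adjusted p = 0.0123), a call lost without preleukemic replicate 4 (limma adjusted p = 0.0517). The other abundant members were Elk3, of the same subfamily (-0.08, limma adjusted p = 0.637), and Gabpa, the DNA-binding subunit of GABP (-0.22, limma adjusted p = 0.175).

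**Figure D4:**
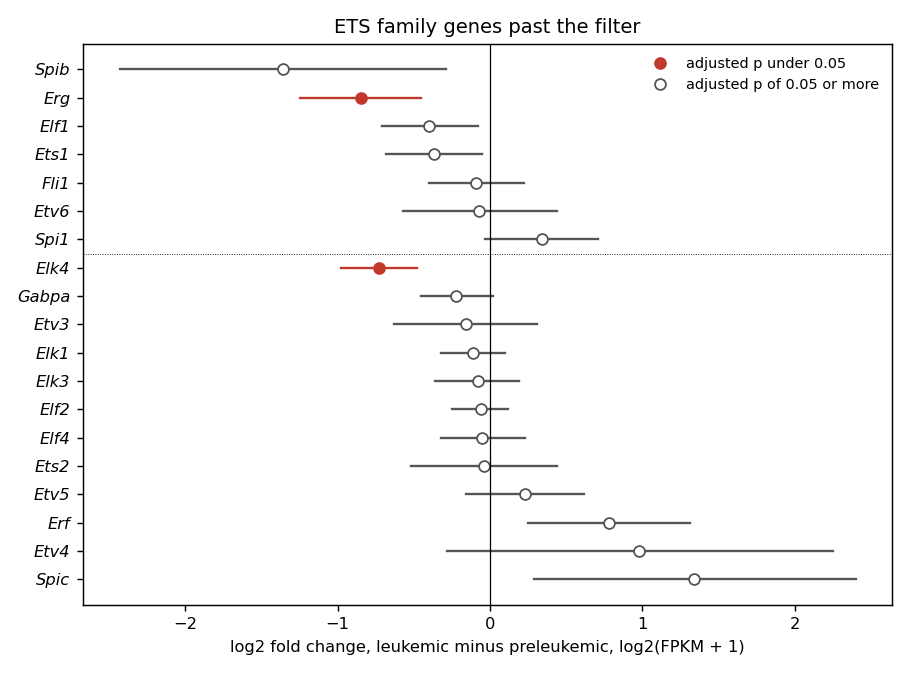
Log2 fold change of leukemic against preleukemic samples (horizontal axis, log2(FPKM + 1)) for the 19 ETS family genes past the filter, with 95% intervals and filled red points where the limma adjusted p was under 0.05. Erg at -0.85 and Elk4 at -0.73 were the called genes, Spib at -1.36 had a wide interval, and Spi1 at 0.34 was the one point above 0 among the upper 7.

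Partner proteins of ETS factors formed a list of 20 genes, of which 19 were tested and 9 called, or 47.4% against 14.7% of all genes. This list, like the target lists below, was written with earlier results of these data known. Its share beside that of all genes is therefore a description and no test. The list had a median of -0.08, with 4 genes higher and 5 lower. Among the partners shared with Erg and Fli1 in stem cells, Lmo2, an adaptor that joins blood transcription factors, was at 89.5, 87.0 and 95.8 FPKM in leukemic replicates 1 to 3 and 18.1 to 29.1 FPKM in preleukemic samples. Lmo2 rose by a log2 change of 1.97 (SE 0.16, limma adjusted p = 0.00426). The erythroid factors Gata1 (3.55, limma adjusted p = 0.0224) and Tal1 (3.55, limma adjusted p = 0.0172) rose, as did all 7 red cell precursor markers tested (Gata1 is one of them), and Runx1, the partner of Ets1 and of human ETV6 fusions, fell by 0.61 (limma adjusted p = 0.0167). The calls of Gata1 and Tal1 were lost without preleukemic replicate 2, 3 or 4, and that of Runx1 without replicate 3 or 4. Gata1 passed the filter only through its leukemic values.

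The B-lineage partners Pax5 (-0.78), which recruits Ets1 to DNA, and Ebf1 (-0.70) fell, with limma adjusted p of 0.0134 and 0.00952. Myb, a factor of immature blood cells, fell by 0.46 (limma adjusted p = 0.0412), a call kept in 5 of 14 other settings and lost without leukemic replicate 1 or 2 or any 1 preleukemic sample. Fos, which pairs with Jun and with ETS factors at shared sites, rose by 1.88 from low levels (limma adjusted p = 0.041), a call kept in 4 of 13 other settings and lost without leukemic replicate 1 or 3 or any 1 preleukemic sample. Fos passed the filter only through its leukemic values. The call of Pax5 was lost without preleukemic replicate 3 or 4. The abundant stem cell factor Lyl1 differed by -0.06 (limma adjusted p = 0.753).

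Target genes were read by lineage. Of 22 B-cell genes regulated by PU.1 or Spi-B, 21 were tested and 4 called, all lower, or 19.0% against 14.7%, and the median was -0.54. The 4 were the B-cell kinase Blk (-2.58, limma adjusted p = 0.0236), the surrogate light chain genes Igll1 (-1.32, limma adjusted p = 0.0244) and Vpreb1 (-1.50, limma adjusted p = 0.0226), and Foxo1 (-0.95, limma adjusted p = 0.0277), a factor that activates the recombinase genes. Differences were below 0 for 17 of the 21, and 10 had leukemic samples all lower, where 17.1% of all genes tested did. The calls of Blk, Vpreb1 and Foxo1 were lost without preleukemic replicate 2, 3 or 4, and that of Igll1 without any 1 preleukemic sample. Blk passed the filter only through its preleukemic values. Cd79a, a chain of the B-cell receptor complex, was the most abundant gene of the list that was not called (-0.48, limma adjusted p = 0.0567).

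Of 15 PU.1 target genes of macrophages, 13 were tested and 10 called, or 76.9% against 14.7%, of which 9 were higher, and the median was 1.40. In preleukemic samples alone, Csf1r, Csf3r, Itgam, Fcgr3, Mpeg1 and Cebpb did not reach the FPKM sum of 10 asked by the filter. They were thus tested because of their leukemic values and could hardly be called lower. With the filter at an FPKM sum of 70, 3 genes of the list were called, 2 higher and 1 lower. Csf1r, the receptor of macrophage colony-stimulating factor, was at 11.3, 22.6 and 15.2 FPKM in leukemic replicates 1 to 3 and 1.1 to 2.03 FPKM in preleukemic samples, a rise of 2.74 (SE 0.24, limma adjusted p = 0.00514). It is also one of the macrophage markers whose sum is given above. Tyrobp, Cebpb, Mpeg1, Cybb, Lyz2, Fcgr3, Csf3r and Itgam rose by 1.28 to 2.56. Of these calls, that of Cebpb was kept whichever sample was left out, while those of Tyrobp and Cybb were lost without preleukemic replicate 4, and those of Mpeg1 and Itgam without preleukemic replicate 3 or 4. Lyz2 lost its call without leukemic replicate 3 or preleukemic replicate 2, 3 or 4, Csf3r also without leukemic replicate 2, and Fcgr3 also without leukemic replicate 2 or preleukemic replicate 1. Tlr4, the endotoxin receptor, fell by 0.66 (limma adjusted p = 0.048), a call kept in 5 of 14 other settings and lost without leukemic replicate 1 or 3 or any 1 preleukemic sample. The abundant genes Ctss and Ncf4 differed by 0.52 and 0.05 without passing (limma adjusted p of 0.0737 and 0.875). Spi1 itself did not pass the test in the same samples, and the part of other cells in these rises was not tested.

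Genes with the profile most like each ETS gene were read from the root mean square difference of centred log2(FPKM + 1) values over the 7 samples, among 8768 genes with a mean of at least 5 FPKM. Vbp1 and Hyls1 were nearest to Fli1 (0.024 and 0.052), and Manea and Sp4 to Ets1 (0.042 and 0.077). Ctsz and Arid3b were nearest to Spi1 (0.060 and 0.076), Zfp729a and Zfp654 to Elf1 (0.077 and 0.082), and Bcl11a and Aldh2 to Etv6 (0.107 and 0.113). Of these pairs, Hyls1 lies on the chromosome of Fli1 and Ctsz on that of Spi1.

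This measure grows with the spread of the gene itself, which was an SD of 0.981 for Spib and 0.512 for Erg over the 7 samples and 0.176 to 0.301 for the other 5. Gm17296 was near to Erg (0.152) and fell (limma adjusted p = 0.00741). Otub2, a deubiquitinase, was nearest to Spib (0.117), at 4.17 FPKM in leukemic replicate 1 and 21.0 and 22.2 FPKM in replicates 2 and 3, the same low sample as for Spib. Slamf7, a surface receptor of lymphocytes and plasma cells, followed at 0.199. These likenesses describe 7 samples that share their groups.

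How each value is scaled between samples moved the calls. Rescaled to an equal FPKM total per sample (TPM), Spib, Ets1, Erg and Elf1 were called lower, 4 of 7, where 27.7% of all genes tested were called and 21.2% were called lower. After quantile normalization Ets1 and Erg were called, 2 of 7, against 15.8% of all genes and 8.60% lower. These scalings moved the median of all genes tested from -0.02 to -0.18 and to -0.06, and relative to it Erg stood at -0.84 as reported, -0.84 with TPM and -0.87 with quantile normalization. The split of all calls was 893 higher and 660 lower as reported, 686 and 2231 with TPM, and 754 and 907 with quantile normalization.

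**Figure D5:**
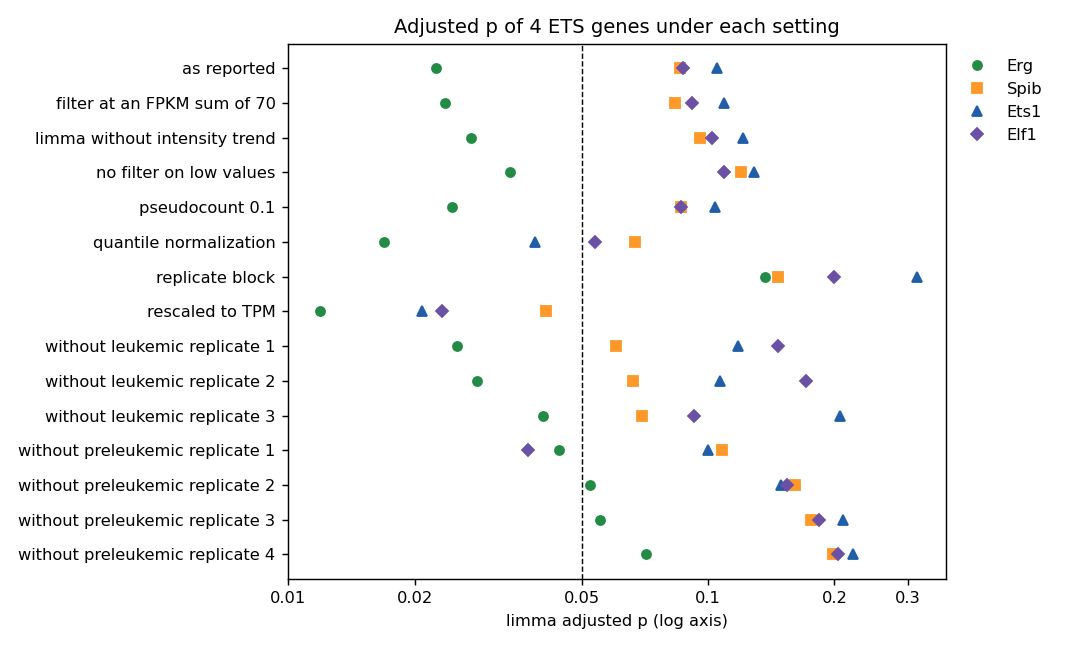
Limma adjusted p (horizontal axis, log scale) of Erg, Spib, Ets1 and Elf1 as reported and under 14 other settings (vertical axis), with a dashed line at 0.05. Erg lay left of the line in 10 of the 14, and Spib, Ets1 and Elf1 crossed it in 1, 2 and 2.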

How the data were processed

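Total RNA from sorted BCP cells of 7 Eμ-Ret mice (3 leukemic, 4 preleukemic) was sequenced as stranded mRNA libraries. The authors deposited FPKM values for 24341 genes and 7 samples, each column named for 1 sample, with a floor of 0.01 FPKM. The authors' processing notes, given as submitters, name STAR 2.5.0b, Cufflinks 2.2.1, bedtools 2.17.0, Bowtie, DESeq2 and mm10, without roles. The authors tested counts with DESeq2, a filter on sums under 10 and an FDR of 0.05. FPKM values are no counts, so log2(FPKM + 1) was tested with limma 3.58.1 in R 4.3.3 (intensity trend, no covariates, Benjamini-Hochberg adjustment, adjusted p under 0.05) where FPKM summed to 10 or more over the samples. FPKM totals differ between samples, which scaling alternatives address, and adding 1 understates changes of low genes.

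Depth was derived from steps of low values at genes with a single transcript. At the depths given, 75.3% to 80.1% of low values were whole fragments (within 0.1), against medians of 10.9% to 12.7% over all depths tried. Intervals of depth cover counting error only. Above the floor, any 2 samples had at most 1 value in common. The labels give no batch, and p-values measure the spread between these mice. Deposited locus starts count from 0 and were printed from 1. The table held 27 names turned into dates by a spreadsheet.

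The 7 genes and all lists were chosen with earlier results of these data known. Named were the 7 genes, of each list the genes called and at most 3 with the highest mean FPKM, and the 2 nearest profiles per gene. Values of 2 genes so chosen are not reported here, but list counts include them. On simulated data over 10541 genes the test recovered 146 of 200 genes changed by a log2 of 1, with 4 false calls, 189 of 200 changed by 2, with 11, and made 0 calls with none changed. Alternatives were 14 settings of filter, pseudocount, scaling, variance trend, replicate block and samples. Values were handled in Python 3.11.15 with numpy 2.4.6 and pandas 2.3.3, and plotted with matplotlib 3.10.9.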

Additional observations from a re-analysis of the deposited data

Results flagged for a closer look

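A sample far from the rest of its group was looked for in 63 groups of 4 preleukemic values, and 5 were found. Chance alone marks about 1 group in 20. Preleukemic replicate 1 stood apart in 4 of the 5. Its red cell precursor markers summed to 396 FPKM, against 24.3 to 29.2 FPKM in the other preleukemic samples. Gata1 was at 7.09 FPKM there, against 0.0863 to 0.524 FPKM, and Tal1 at 7.81 FPKM, against 0.493 to 0.991 FPKM. Zfp729a, the gene nearest in profile to Elf1, was low in the same sample, at 6.79 FPKM against 8.47 to 8.65 FPKM, and Elf1 itself had its lowest preleukemic value there. Fos was at 1.85 FPKM in preleukemic replicate 2, against 0.611 to 0.788 FPKM in the others.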

How the results depend on the processing

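Of the 98 values of the 7 ETS genes under 14 settings, 86 kept their direction and their side of the threshold, 3 turned direction, 5 passed newly and 4 no longer passed. As reported, 1 ETS gene, 1 further ETS family gene, 9 partners, 4 B-cell targets, 10 macrophage targets and 1553 genes in all were called. TPM gave 4 ETS genes, 2 further family genes, 15 B-cell targets and 2917 genes in all, and quantile normalization gave 2 ETS genes and 8 B-cell targets. A filter at an FPKM sum of 70 gave 3 macrophage targets and 951 genes in all. Leaving out 1 sample gave 0 to 2 ETS genes, 0 to 4 further family genes, 2 to 9 partners, 0 to 8 B-cell targets, 2 to 10 macrophage targets and 149 to 1620 genes in all, the lowest without preleukemic replicate 4, then replicates 3 (271), 2 (443) and 1 (932). Without preleukemic replicates 2, 3 and 4, limma called 0 ETS genes, with 4, 3 and 1 of the 7 at an unadjusted p under 0.05. Of all 10541 genes tested, 3001, 2808 and 2648 were under that limit in the same fits.

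The replicate numbers did not pair the samples (correlations of same-numbered deviations of 0.03, 0.05 and -0.09). With the replicate block limma called 0 genes in every count, with 2429 of all genes, 3 ETS genes, 3 further family genes, 10 partners, 12 B-cell targets and 11 macrophage targets at an unadjusted p under 0.05. Erg and Elk4 each had a limma adjusted p of 0.137 there.

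Directions turned for genes near 0. Ncf4 was -0.02 with quantile normalization and -0.11 with TPM, and Aldh2 was -0.08 and -0.15. With 1 sample left out, the range was -0.29 to 0.16 for Etv6, -0.21 to 0.03 for Fli1, -0.19 to 0.02 for Elk3, -0.14 to 0.09 for Lyl1, -0.23 to 0.12 for Bcl11a, -0.21 to 0.28 for Aldh2, -0.15 to 0.28 for Ncf4, -0.20 to 0.04 for Vbp1 and -0.23 to 0.05 for Hyls1. The cause was not tested. The lowest value of the 7 genes would stand for 252 fragments at the depth of the shallowest sample and the assumed transcript length.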

Other observations

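A few ETS-related genes outside the naming rule were picked after their values were seen. Spic, the PU.1 relative of red pulp macrophages, was at 1.58, 9.00 and 2.31 FPKM in leukemic replicates 1 to 3 and at most 0.967 FPKM in preleukemic samples (log2 difference 1.34, limma adjusted p = 0.0859). The sample with the highest Spic value, leukemic replicate 2, also had the highest macrophage marker sum. Irf8, a partner of PU.1, was at 135, 43.5 and 177 FPKM in leukemic replicates 1 to 3 and at 58.4 to 88.6 FPKM in preleukemic samples, so that leukemic samples lay on both sides of the preleukemic range (log2 difference 0.50, limma adjusted p = 0.459). Irf4, its relative, was at 79.0, 55.9 and 48.4 FPKM and at 70.7 to 83.2 FPKM (log2 difference -0.31, limma adjusted p = 0.219). Spi1 ordered the leukemic samples as Irf8 did, with replicate 3 highest and replicate 2 lowest.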
